A study of Mesocricetus auratus with 11 samples.

Results

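Sparse CpGs that were highly methylated in primary fetal cells of the Syrian hamster (Mesocricetus auratus) were followed from those cells into a transformed line and through treatment of that line with a demethylating drug. The set was chosen by measured values. A CpG belonged to it if it had at least 10 reads in each of the 11 libraries, if 1 to 9 CpGs listed in any library lay within 250 bp on each side (itself included), and if the pooled reads of primary replicates 1 and 2 were more than 80% methylated. Density thus counts covered CpGs only, and the density of CpGs in the genome was not examined. Of 2010882 CpGs listed in any library, 81297 had at least 10 reads in every library, and 16706 of these (20.5%) met the whole rule. They made up 36.0% of the 46464 sparse CpGs among the common ones. A further selection came with depth: 66872 sparse CpGs were above 80% with at least 10 reads in primary replicates 1 and 2, and 24.98% of those reached 10 reads in all 11 libraries.

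Primary fetal cells came from individual female fetuses at gestation day 13.5, with head, viscera and limbs removed. They are a mixture of dividing cells of ectodermal and mesodermal origin that had spent under 3 days and 1 passage in culture and received no treatment. All 4 primary libraries are separate stocks. MT2 is a female line grown from 1 colony that benzo[a]pyrene (5 µg/mL) had morphologically transformed. It bypassed senescence and was at an estimated passage 28. A stock of MT2 was seeded into wells, of which 4 given the vehicle (0.05% DMSO) and 3 given 5 µM 5-aza-2'-deoxycytidine (5aCdR) for 48 h were sequenced. These wells are technical replicates of a single line, so MT2 errors measure the spread between wells, and what is particular to this line cannot be told apart from transformation in general.

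In mammalian cells most CpGs outside CpG islands carry methyl groups on both strands, and DNMT1 copies the mark onto the new strand after replication. 5aCdR is incorporated into replicating DNA and traps DNA methyltransferases there, so that methylation is diluted as cells divide. Cultured transformed lines often have lower methylation at isolated CpGs than normal cells. Reduced representation bisulfite sequencing, used here, reads the ends of fragments cut at a CpG-containing motif, so isolated CpGs enter it only where such a cut lies near.

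The 16706 CpGs lay on 873 of the 6664 scaffolds listed, 96.8% of them on scaffolds whose names begin with KB. The median distance to the next such CpG was 9295 bp. Another lay within 250 bp for 40.6% of them, and 2753 fell in 794 tiles of 1 kb that held at least 3. Their median density was 4, with 9168 at a density of 1 to 4, 7538 at 5 to 9, and 925 with no other covered CpG in the window. Both strands were listed at 36.5% of them, against 66.4% of all common CpGs. Their median depth was 41 to 87 reads per library, lowest in vehicle replicate 3 and highest in 5aCdR replicate 1. Of the common CpGs at a density of 10 to 19, 18.2% passed the same 80% limit, and of those at 20 or more, 1.82%.

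Primary replicates 3 and 4 took no part in the choice, and they set the primary level in every comparison. The mean level over the 16706 CpGs was 85.2% in primary replicate 3 and 85.3% in replicate 4, against 95.1% and 94.9% in replicates 1 and 2, which chose them. The CpGs were therefore highly methylated on average in all 4 fetuses, but less so in the libraries that had not selected them. In primary replicates 3 and 4 together, 9230 (55.2%) were above 80% in both, while 389 were above 80% in 1 and below 20% in the other. Below 20% lay 521 in replicate 3, 304 in replicate 4 and 49 in both. The label of the set thus held for its mean and for the majority of its CpGs, not for each one. Of the 16706, 8846 (53.0%) were read as fully methylated in primary replicates 1 and 2 together, and these stood at 87.5% in replicates 3 and 4.

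The first comparison asked how 5aCdR changed these CpGs in MT2. Their mean level was lower in every treated well than in any vehicle well. The mean level was 77.0%, 76.9%, 77.0% and 76.6% in vehicle replicates 1 to 4, and 68.7%, 68.2% and 68.1% in 5aCdR replicates 1 to 3. The groups did not overlap, and the spread within each was small beside the gap between them. The mean was 68.3% ± 0.340 (SD, n = 3) after 5aCdR against 76.9% ± 0.180 (SD, n = 4) with vehicle, a difference of -8.54 percentage points or -11.1% of the starting level. Over all 81297 common CpGs the difference was -4.93 points, or -12.9% of a starting level of 38.1%.

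The second comparison set MT2 with vehicle against the 2 primary libraries that had not chosen the CpGs. All 4 vehicle libraries, between 76.6% and 77.0%, lay below both primary ones. The mean difference was -8.40 points from 85.3% ± 0.0357 (SD, n = 2), a relative change of -9.85%, and over all common CpGs it was -3.08 points. After 5aCdR the CpGs differed from the primary level by -16.9 points, a relative change of -19.9%. With primary replicates 3 and 4 choosing the CpGs and replicates 1 and 2 compared, the MT2 difference was -8.20 points and that of 5aCdR was -8.76. No p-value is given for these means, because the CpGs were picked with results of these data known. The contrasts between sets given below use CpGs picked in the same way, so their p-values carry the same limit.

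**Figure D1:**
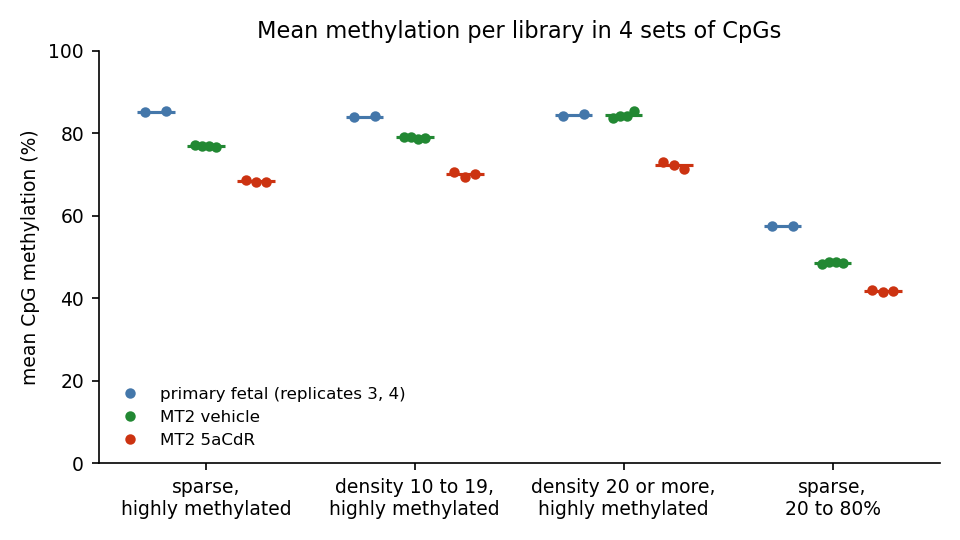
Mean CpG methylation (vertical axis, %) in each library for 4 sets of CpGs; points are libraries, bars are group means, with primary fetal replicates 3 and 4 in blue, MT2 vehicle in green and MT2 5aCdR in red. In the sparse, highly methylated set the groups form 3 separate steps near 85.3%, 76.9% and 68.3%, whereas at a density of 20 or more vehicle and primary libraries lie together.

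The sparse CpGs were set against CpGs that passed the same 80% limit at higher density. Between primary cells and MT2, the densest of these stood at nearly the same level. The 371 with a density of 20 or more were at 83.8%, 84.3%, 84.1% and 85.5% in the vehicle libraries and at 84.2% and 84.7% in primary replicates 3 and 4, so these groups overlapped, with a difference of -0.0641 points. The 2617 with a density of 10 to 19 differed by -5.03 points. The contrast of the sparse CpGs was -8.33 points with the first set and -3.37 with the second. In each case the sparse level minus the denser level was lower in all 4 vehicle libraries than in both primary ones (exact two-sided permutation test, p = 0.0667 in each, Benjamini-Hochberg adjusted p = 0.0889 over 4 contrasts). No smaller raw p can come from 4 against 2 libraries, so the test cannot pass 0.05.

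The same trend ran within the sparse set. From primary replicates 3 and 4 to vehicle, the mean differed by -14.1 points at the 925 CpGs of density 1 and by -10.4 at the 2418 of density 2. The difference was -8.95 at density 3, -7.18 at density 5, -7.78 at density 6 and -4.63 at the 872 CpGs of density 9. Primary levels were nearly flat across these steps, between 84.8% and 86.3%, while vehicle levels ran from 72.2% ± 0.5004 (SD, n = 4) at density 1 to 81.7% ± 1.101 (SD, n = 4) at density 9. CpGs of density 1 to 4 differed by -9.67 points and those of 5 to 9 by -6.84, a contrast of -2.83 (exact permutation test, p = 0.0667, adjusted p = 0.0889). At the limit of the rule, the 660 highly methylated CpGs of density 10, just outside it, differed by -5.26 points. From density 11 to 19 the differences followed no steady course. They lay between -8.37 points at the 76 CpGs of density 18 and 1.25 at the 113 of density 16.

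**Figure D2:**
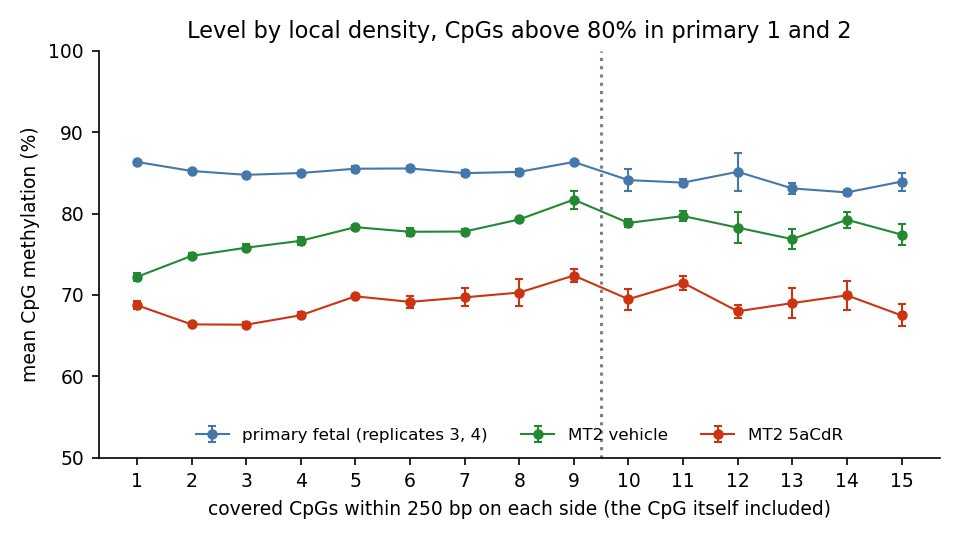
Mean methylation (vertical axis, %) of CpGs above 80% in primary replicates 1 and 2, by the number of covered CpGs within 250 bp on each side (horizontal axis); points are group means, error bars are SDs over libraries, and the dotted line marks the upper limit of the sparse set. Primary levels are nearly flat over densities 1 to 9, vehicle levels rise from 72.2% to 81.7%, and the 5aCdR level differs from vehicle by -8.08 to -9.46 points at densities 2 to 9 but by -3.47 at density 1.

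The response to 5aCdR was similar at densities 2 to 9, and its contrasts by density depended on how CpGs were weighted. The difference from vehicle was -8.48 points at density 1 to 4 and -8.60 at 5 to 9, a contrast of 0.123 that missed the threshold (exact permutation test, p = 0.6). Against the highly methylated CpGs of density 10 to 19, which differed by -8.95 points, the contrast of 0.411 missed it too (exact permutation, p = 0.2, adjusted p = 0.267). Per library, the gap between these sets had an SD of 0.488 points after 5aCdR and 0.289 with vehicle. With reads pooled over CpGs, which gives deep CpGs more weight, the first contrast was 0.831 (exact permutation test, p = 0.0286) and the second turned to -1.89 (exact permutation test, p = 0.0286). The densest CpGs differed by -12.2 points, a contrast of 3.62 with the sparse set (exact permutation, p = 0.0286, adjusted p = 0.0571). That contrast depended on which fetuses chose the CpGs: it was 0.964 with the choice made without primary replicate 2 (exact permutation, p = 0.0571), and 2.39 without replicate 1.

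Density 1 stood apart in the response to 5aCdR, a group singled out after its values were seen and given without a test. These 925 CpGs averaged 68.8% ± 0.481 (SD, n = 3) after 5aCdR against the 72.2% with vehicle given above. Their difference of -3.47 points, or -4.81% of the starting level, compares with -8.83 points and -11.5% at densities 2 to 9. Sparse CpGs of 20 to 80% in primary replicates 1 and 2 had the same step, with -1.61 points at the 822 of density 1 and -7.14 points at the 20183 of density 2 to 9. CpGs without a covered neighbour differ from the others in how they were read: 5.95% of the 925 were listed on both strands, against 38.3% at densities 2 to 9. Among CpGs listed on 1 strand, the change was -3.56 points at density 1 and -8.05 at densities 2 to 9. Over the whole set it was -10.0 points where both strands were listed and -7.68 where 1 was. The part of strand listing in this step was not tested further.

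Starting level was the other axis of comparison among CpGs of low covered density. The 21005 sparse CpGs of 20 to 80% in primary replicates 1 and 2 stood at 41.7% ± 0.215 (SD, n = 3) after 5aCdR, where the vehicle wells had 48.7% ± 0.236 (SD, n = 4). The contrast of the highly methylated CpGs with these was -1.62 points (exact permutation, p = 0.0286, adjusted p = 0.0571), but their relative change was the smaller one in size, -11.1% against -14.2%. On a log2 ratio scale the contrast therefore had the opposite sign, 0.0515 (exact permutation, p = 0.0286, adjusted p = 0.0571). From primary cells to vehicle the 20 to 80% set differed by -8.88 points, or -15.4%, and its contrast with the highly methylated set was 0.488 points (exact permutation, p = 0.133). The 8753 sparse CpGs below 20% in primary replicates 1 and 2 went the other way between cell types, from 16.2% ± 0.436 (SD, n = 2) to 19.9% ± 0.270 (SD, n = 4), and differed by -3.22 points after 5aCdR. Those low CpGs had been at 4.93% and 5.01% in the primary libraries that chose them, so they too stood nearer the middle in replicates 3 and 4. Just inside the 80% limit, the 2319 CpGs of 80 to 85% were at 79.3% in primary replicates 3 and 4, 68.3% with vehicle and 60.0% after 5aCdR. Just outside it, the 2255 sparse CpGs of 75 to 80% were at 75.8%, 64.0% and 55.6%.

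The losses took different forms in the comparisons. Per library, the share of the 16706 CpGs above 80% was 61.0%, 63.9%, 64.5% and 60.8% with vehicle and 43.9%, 44.5% and 43.7% after 5aCdR. It was 72.0% in primary replicate 3 and 70.6% in replicate 4. The share below 20% was 2.47% ± 0.9185 (SD, n = 2) in primary cells and 9.46% ± 1.76 (SD, n = 4) with vehicle, with every vehicle library above both primary ones. After 5aCdR it was 9.26% ± 0.751 (SD, n = 3), within the range of the vehicle libraries. CpGs lost from the top after 5aCdR were found at intermediate levels, whose share went from 28.0% ± 3.66 (SD, n = 4) to 46.7% ± 1.002 (SD, n = 3). Fully methylated CpGs made up 48.7% ± 5.35 (SD, n = 4) with vehicle and 25.2% ± 1.81 (SD, n = 3) after 5aCdR, and 53.0% and 42.1% in the 2 primary libraries.

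These shares differed between vehicle wells of different depth. The shallower vehicle replicates 2 and 3 had 52.2% and 54.3% fully methylated CpGs, the deeper replicates 1 and 4 had 43.6% and 44.7%. The fully methylated share was not examined after thinning, only the share above 80%. With each CpG thinned to 10 reads in each library, the latter was 62.9% and 63.5% in replicates 2 and 3. It was 59.0% in both replicates 1 and 4, so the gap in the share above 80% did not shrink. After thinning this share was 41.6% to 42.7% after 5aCdR and 66.7% to 69.2% in primary replicates 3 and 4. The 3 groups kept their order without overlap.

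**Figure D3:**
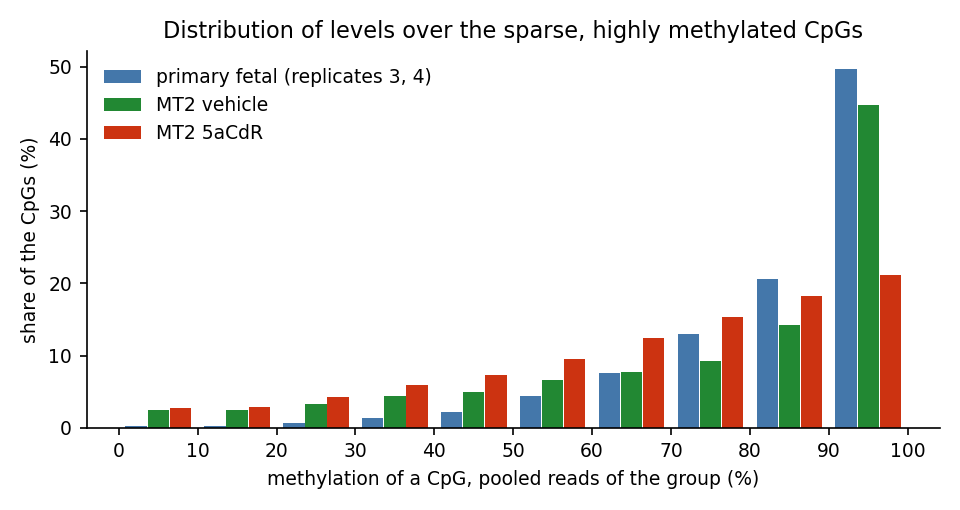
Distribution of levels over the 16706 CpGs in bins of 10 points (horizontal axis, methylation from the pooled reads of each group, %; vertical axis, share of the CpGs, %), with primary replicates 3 and 4 in blue, MT2 vehicle in green and MT2 5aCdR in red. The top bin holds 49.7%, 44.6% and 21.2% of the CpGs in the 3 groups.

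Over the pooled reads of each group, the median level was 89.8% in primary replicates 3 and 4, 86.8% with vehicle and 73.4% after 5aCdR, and the lower quartile was 77.0%, 61.3% and 51.8%. Between primary cells and vehicle the lower quartile thus moved by far more than the median. Of the 11695 CpGs above 80% in pooled primary replicates 3 and 4, 68.2% were above 80% with vehicle, 29.3% lay between 20 and 80%, and 292 (2.497%) were below 20%. Of those above 80% with vehicle, 61.0% were still above 80% after 5aCdR, 38.9% lay between 20 and 80%, and 4 CpGs were below 20%. Pooled levels of shallow CpGs carry sampling error, and its part in these crossings was not tested.

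Change per CpG showed the same contrast of a broad against a skewed loss. After 5aCdR the median difference was -7.75 points, 70.3% of the CpGs were lower and 25.1% higher, and over all common CpGs the median was -0.478 and 51.5% were lower. A fall of at least 25 points was seen at 2428 CpGs (14.5%, against 8.86% of all common CpGs) and of at least 50 points at 178 (1.07%, against 0.661%). Between primary cells and vehicle the median difference was -2.20 points, while 3625 CpGs (21.7%) were lower by at least 25 points and 1318 (7.89%) by at least 50, against 15.4% and 4.97% of all common CpGs. Rises of at least 25 points were seen at 1019 CpGs (6.10%) in MT2 and at 380 (2.27%) after 5aCdR, against 8.93% and 1.68% of all common CpGs. Both comparisons use the same vehicle libraries, so their per-CpG differences are not independent of each other. The common CpGs were not matched to the sparse set for starting level or depth.

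To see whether the 5aCdR loss depended on the level a CpG had in MT2 itself, the CpGs were classed by vehicle replicates 1 and 2 and compared with vehicle replicates 3 and 4. The 9773 CpGs above 80% in the first pair were at 91.8% and 91.6% in the second pair, and at 81.9%, 81.5% and 81.3% after 5aCdR. The 5972 CpGs of 20 to 80% were at 61.3% and 60.9% with vehicle and at 54.8%, 54.1% and 54.3% after 5aCdR. The 961 CpGs below 20% were at 23.5% and 22.3% with vehicle and at 21.6%, 20.6% and 19.8% after 5aCdR. Each class lost a similar share of its level, with relative changes of -11.0%, -11.0% and -9.66%, while the differences in points were -10.1, -6.75 and -2.21. In primary replicates 3 and 4 these classes averaged 89.7%, 80.6% and 69.6%, so the CpGs lowest in MT2 were also the lowest of the 3 in primary cells, by far less.

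**Figure D4:**
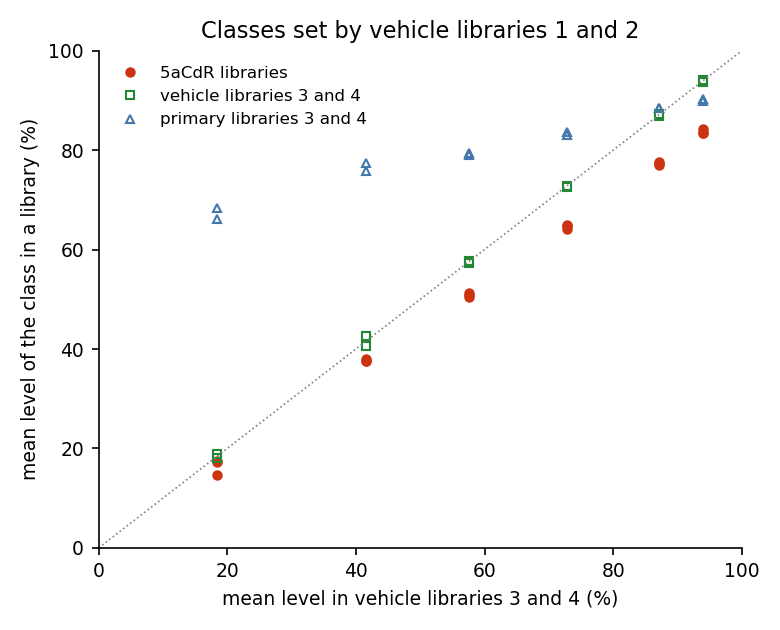
Mean level in single libraries (vertical axis, %) of 6 classes of the CpGs set by vehicle replicates 1 and 2, against their mean in vehicle replicates 3 and 4 (horizontal axis, %); red points are 5aCdR libraries, open green squares vehicle replicates 3 and 4, open blue triangles primary replicates 3 and 4, and the dotted line marks equality. The 5aCdR points run below the line in proportion to the level, with relative changes of -9.15% to -11.6% over the 6 classes, and the primary points lie above it in every class except the fully methylated one.

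Single wells differed strongly at single CpGs, although their means agreed closely. The mean absolute difference between 2 vehicle wells at a CpG was 15.4 to 18.8 points, where sampling of the listed reads alone would give 3.53 to 4.02. It was 19.7 to 20.7 points between 5aCdR wells and 16.5 between the 2 primary libraries. At 23.6% to 29.2% of the CpGs, 2 vehicle wells differed by more than 25 points. The spread between libraries at a CpG was thus far wider than its read counts alone would give. The number of molecules behind the reads is unknown, and the source of this spread was not tested.

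Few single CpGs passed a test. A quasi-binomial model over 155920 CpGs called 134 lower and 1 higher after 5aCdR at an adjusted p below 0.05, which is 0.0859% and 0.000641% of those tested. Of the 16706 sparse CpGs, 85 were called lower (0.509%) and 0 higher, while 3636 (21.8%) had an unadjusted p below 0.05, against 8.77% of all CpGs tested. The called ones were deep, with a median of 375 reads against 62 for all 16706, and went from a median of 99.1% with vehicle to 67.8% after 5aCdR. The count was 8, 9 and 8 without 5aCdR replicates 1, 2 and 3, and 48 and 54 without vehicle replicates 1 and 4. It was 12 with CpGs of very high coverage left out, 13 with the replicate number as a block, and 0 in limma. For such altered fits, here and below, calls over all CpGs or tiles were not counted. Their counts are therefore not read as particular to the set. At 2005 CpGs (12.002%) all 5aCdR wells lay below all vehicle wells and at 113 (0.676%) above them, against 4.39% and 0.829% of all CpGs tested. The background here and for tiles below was not matched for starting level. With vehicle the sparse set averaged 76.9% and all common CpGs 38.1%, so the sparse set could fall further.

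In tiles of 1 kb, 0.783% of the 18639 tested were called lower after 5aCdR and 0.0161% higher. Of the 794 tiles with at least 3 of the sparse CpGs, 23 (2.90%) were called lower and 0 higher, with 242 (30.5%) at an unadjusted p below 0.05, against 12.3% of all tiles tested. The called ones were again deep, at a median of 450 reads against 277.5 for the 794. The count was 6, 7, 7 and 3 without vehicle replicates 1 to 4, and 15 without 5aCdR replicate 1. limma called 3, and the block fit 11.

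Between primary replicates 3 and 4 and MT2 vehicle, 1.83% of 147189 CpGs were called lower in MT2 and 0.949% higher. Of the sparse CpGs, 617 (3.69%) were lower and 132 (0.790%) higher. The called ones went, in the median, from 90.6% to 22.5% where lower, and from 64.1% to 100% where higher. Libraries did not overlap at 2421 CpGs (14.5%) that were lower and 1058 (6.33%) that were higher, against 9.4% and 5.33% of all CpGs tested. Among tiles, 119 of the 794 (15.0%) were called lower and 35 (4.41%) higher, against 7.17% and 4.55% of the 17412 tested. Losses were thus called at a higher share than among all CpGs and tiles, and gains at about the background share. The rule favoured CpGs with a high level, which can fall further than they can rise. Depth was not matched either: the called CpGs of the set had a median of 119 reads, against 56.5 for the whole set. Without primary replicate 3 or 4 the calls of both directions fell from 749 to 22 and 32 CpGs, and from 154 to 51 and 35 tiles. Without vehicle replicates 1 to 4 they were 301, 384, 390 and 270 CpGs.

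After 5aCdR, 5 single CpGs met the rule for naming, by the size of their fall among called CpGs without overlap. At position 1543149 of scaffold KB708180.1 a CpG with 3 covered CpGs in its window was 100% methylated in all 4 vehicle wells. After 5aCdR it was at 1.41%, 0% and 27.0%, a difference of -90.5 points (quasi-binomial test, adjusted p = 0.0353), at a median of 41 reads. The primary libraries read it at 100%, 100%, 100% and 18.8%, so 1 fetus had a low level without any drug. The CpG at 17483579 of KB708160.1 was at 98.9%, 100%, 100% and 100% with vehicle and at 34.4%, 29.0% and 33.8% after 5aCdR (quasi-binomial test, adjusted p = 0.0130). In primary replicates 3 and 4 it was at 98.0% and 100%, and its 3 treated wells lay below all of these.

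The other 3 were at 9511656 of KB708161.1, 6232856 of KB708169.1 and 18191903 of KB708130.1. Their vehicle wells were between 98.5% and 100%. The treated wells stood at 39.2%, 40.2% and 36.6% for the first, 54.3%, 27.6% and 46.4% for the second, and 48.7%, 44.8% and 40.1% for the last (quasi-binomial test, adjusted p = 0.0335, 0.0156 and 0.00891). All of them were above 80% or at 80% in every primary library. Complete loss in all 3 treated wells was not seen at any of the 5. All 5 lost their call when a 5aCdR library was left out, in limma and in the block fit.

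After 5aCdR, 10 tiles were named for falls, with differences of -50.3 to -33.1 points, and none for rises. All 10 lost their call without vehicle replicate 4, 7 did with vehicle replicate 1, 2 or 3 left out in turn, 8 without 5aCdR replicate 1, 9 in limma and 8 in the block fit. The tile at 7024001 to 7025000 of KB708216.1, with 3 CpGs all in the set, had vehicle wells at 84.1%, 98.6%, 100% and 79.3% and treated wells at 26.3%, 41.0% and 53.5% (quasi-binomial test, adjusted p = 0.0402). A second tile on that scaffold, at 2477001 to 2478000, read 100% in each of the 4 vehicle wells and stood at 47.9%, 71.6% and 65.6% after treatment (adjusted p = 0.0225 in the same test). In primary replicates 3 and 4 that tile was at 92.5% and 88.8%, below every vehicle well. On KB708201.1 the tile at 10009001 to 10010000 was at 100% in all 4 primary libraries, at 89.1%, 100%, 100% and 84.7% with vehicle, and at 52.3%, 61.5% and 55.8% after 5aCdR (quasi-binomial test, adjusted p = 0.0495). A stepwise order was seen on KB708265.1 at 2558001 to 2559000. This tile was between 91.4% and 99.3% in primary cells, between 66.9% and 78.6% with vehicle, and between 32.2% and 43.3% after 5aCdR (quasi-binomial test, adjusted p = 0.0447). The smallest adjusted p among the 10, 0.00862, belonged to the tile at 4342001 to 4343000 of KB708278.1, where treated wells were at 70.2%, 59.6% and 54.5% and vehicle wells between 97.2% and 100%.

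Between cell types, 5 single CpGs were named for falls and 5 for rises. All 10 lost their call without primary replicate 3 or 4 and in the block fit, and 5 did with each vehicle well left out in turn, while all 10 were called in limma. At 4062720 of KB708141.1 and at 2548016 of KB708169.1 every primary library read 100% and all 7 MT2 libraries read 0% (quasi-binomial test, adjusted p = 0.00859 and 0.0278). Median depths there were 44.5 and 18.5 reads. The CpG at 7123052 of KB708129.1, of density 1, was between 88.9% and 100% in primary cells and at 0% in all vehicle wells. Treated wells read it at 0%, 41.3% and 5.05%, so the treated wells were not alike. With a CpG picked for vehicle wells at 0%, treated wells could not lie lower, and nothing is read from their being higher. The remaining pair, at 3568106 of KB708129.1 and 3362548 of KB708138.1, were likewise at 0% in the vehicle wells and at 100% in primary replicates 3 and 4. Complete loss of this kind was rare: 36 of the 16706 CpGs were at 0% in all 7 MT2 libraries, 9 of them above 80% in both primary replicates 3 and 4, and 5 at 100% in both. At the other end, 344 (2.06%) were at 100% in all 11 libraries.

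The 5 CpGs named for rises were low in primary replicates 3 and 4. The CpG at 3595215 of KB708244.1 was at 100% in all vehicle wells and in primary replicates 1 and 2, and at 0% in replicates 3 and 4 (quasi-binomial test, adjusted p = 0.00963). The CpGs at 1176548 of KB708367.1, 4414764 of KB708240.1 and 1884196 of KB708179.1 had the same pattern, with 0% to 31.5% in primary replicates 3 and 4. The one at 728647 of KB708347.1 was at 77.6% and 100% in the primary libraries that chose it, and at 25.3% and 3.33% in the others. The high level in replicates 1 and 2 was required by the rule, and the naming required vehicle wells far above replicates 3 and 4, so nothing is read from the likeness of the former.

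Named tiles lower in MT2 fell by 56.3 to 66.7 points. Of the 14 tiles named in this comparison, 8 lost their call without primary replicate 3, 10 without replicate 4, 10 in limma and 9 in the block fit. The tile at 1237001 to 1238000 of KB708293.1 was at 100%, 100%, 80% and 81.8% in primary replicates 1 to 4, and at 9.49%, 1.37%, 12.5% and 33.3% in vehicle wells (quasi-binomial test, adjusted p = 0.00816). After 5aCdR it was at 31.2%, 35.8% and 33.8%, each above at least 3 of the 4 vehicle wells. The tile was picked for its fall in those vehicle wells, so nothing is read from this. On KB708147.1 the tile at 3185001 to 3186000 was between 65.8% and 99.7% in primary cells, between 4.30% and 33.3% with vehicle and between 5.97% and 11.6% after 5aCdR (adjusted p = 0.00170, quasi-binomial test). On KB708279.1 the tile at 4200001 to 4201000 was between 80.9% and 100% in primary cells and between 15.1% and 27.7% with vehicle (adjusted p = 0.0157, quasi-binomial test). Only 4 tiles met the rule for rises. The tile at 643001 to 644000 of KB708232.1 was at 100% in all vehicle wells and in primary replicates 1 and 2, at 98.1% to 100% after 5aCdR, and at 57.9% and 88.4% in primary replicates 3 and 4 (quasi-binomial test, adjusted p = 0.0348). The named rises at 4278001 of KB708174.1 and 53563001 of KB708128.1 became differences of -1.04 and -5.06 points when primary replicates 1 and 2 stood for the primary cells. Those replicates had chosen the CpGs for a high level, and the naming required vehicle wells far above replicates 3 and 4. Nothing is therefore read from the loss of these rises.

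Differences at neighbouring CpGs of the set went together over different distances in the 2 comparisons, given here as a description. For pairs 1 to 50 bp apart (4035 pairs), which can share reads, the correlation of the differences was 0.400 between vehicle and primary cells and 0.441 between 5aCdR and vehicle. At 51 to 250 bp (1683 pairs) it was 0.323 and 0.2202, and over 250 and up to 1000 bp (321 pairs) 0.242 and 0.0701. For the 16334 pairs over 10 kb and up to 100 kb apart it was 0.124 and 0.0140. The 5aCdR differences thus showed next to no similarity beyond 1 kb, and the MT2 differences kept a weak one to 100 kb.

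In windows of 1 Mb with at least 10 of the CpGs, 560 in all with 8543 CpGs, the 5aCdR differences spread less widely than those of MT2. The 5aCdR difference was below 0 in 534 windows (95.4%), with a median of -8.70 points, quartiles of -12.1 and -5.61, and a range of -25.4 to 8.71. The MT2 difference was below 0 in 421 (75.2%), with a median of -5.46, quartiles of -12.2 and -0.0760, and a range of -41.0 to 21.5. A fall of at least 25 points was reached in 26 windows in MT2 and in 1 after 5aCdR. The deepest MT2 loss was on KB708279.1 at 4000001 to 5000000, where 11 CpGs were at 81.8% and 86.5% in primary replicates 3 and 4 and at 43.1% ± 5.08 (SD, n = 4) with vehicle. They stood at 44.4% ± 7.17 (SD, n = 3) after 5aCdR. The windows named here and below were picked for extreme differences that use the vehicle wells. Their 5aCdR differences thus have no independent starting value.

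On KB708217.1 at 1 to 1000000, 13 CpGs went from 82.9% to 47.3% ± 9.32 (SD, n = 4) and stood at 54.3% ± 3.58 (SD, n = 3) after 5aCdR. On KB708244.1 at 1000001 to 2000000, 21 CpGs went from 84.9% to 49.5% ± 5.63 (SD, n = 4) and then to 44.8% ± 4.72 (SD, n = 3). In both windows the vehicle and treated wells overlapped, and all vehicle wells were below both primary libraries. The opposite case was KB708292.1 at 2000001 to 3000000, whose 12 CpGs were at 73.7% in primary cells, at 95.2% ± 1.97 (SD, n = 4) with vehicle and at 78.2% ± 1.78 (SD, n = 3) after 5aCdR. The largest 5aCdR loss was on KB708211.1 at 1000001 to 2000000, from 95.5% ± 2.98 (SD, n = 4) to 70.1% ± 8.45 (SD, n = 3), in a window at 94.1% in primary cells.

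**Figure D5:**
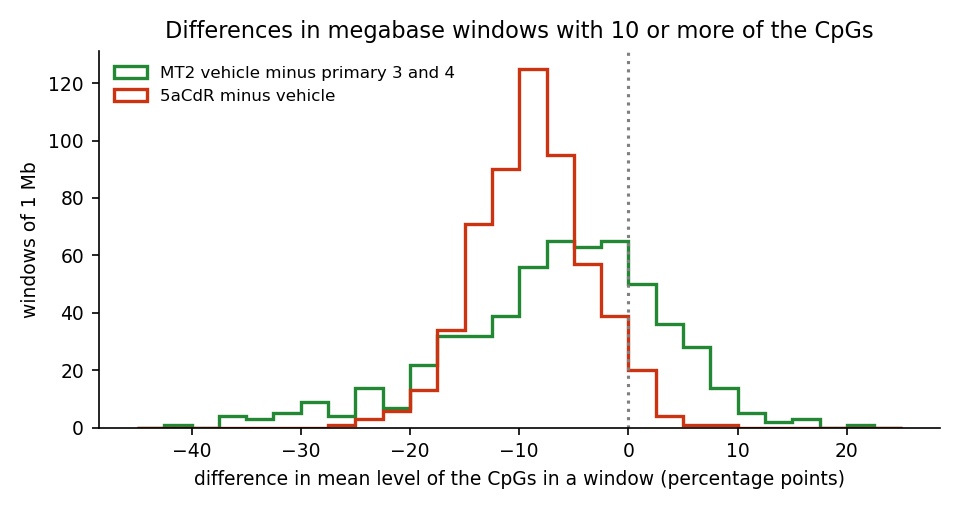
Number of 1 Mb windows with at least 10 of the CpGs (vertical axis) by the difference in their mean level (horizontal axis, percentage points), for MT2 vehicle minus primary replicates 3 and 4 in green and for 5aCdR minus vehicle in red. The 5aCdR differences have a median of -8.70 and run from -25.4 to 8.71, and the MT2 differences spread from -41.0 to 21.5.

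KB708147.1 held 436 of the CpGs and KB708184.1 held 111. From primary replicates 3 and 4 to vehicle they differed by -3.54 and -0.391 points, less than the -8.40 of the whole set. After 5aCdR they differed by -9.74 and -9.72 points, with treated wells at 70.6% to 71.7% and 73.7% to 75.3% and vehicle wells at 79.8% to 81.9% and 82.9% to 86.6%. Vehicle wells overlapped the primary libraries on the second scaffold and lay below both on the first. Whether these scaffolds differ from the rest was not tested.

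Of the 16706 CpGs, 3683 (22.0%) were read as fully methylated in all 4 vehicle wells. After 5aCdR those averaged 86.5%, 85.4% and 85.03% in the 3 wells, 720 of them (19.5%) were still at 100% in all 3, and 747 (20.3%) were below 100% in all 3. The rest, a majority, were below 100% in some treated wells and not in others. Since they were picked for a level of 100% in the vehicle wells themselves, their loss has no independent starting value here.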

How the data were processed

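Levels were measured by reduced representation bisulfite sequencing in 11 libraries, for which the labels' protocols give a commercial kit. The protocol names 4 plates given 5aCdR, and 3 such libraries were analysed. The submitters' processing notes name methylKit 1.10.0, R 3.6.1, Bowtie2, Bismark 0.22.1, Trim Galore 0.5.0 and bcl2fastq 2.20.0.42. Their settings, the genome build and any removal of duplicates are not given in the sources used here. The deposited coverage is a read count on 1 strand of a CpG and the level of C is a percent of them, per the file headers, and positions under 10 reads on a strand are left out, as the values show. The total over CpGs was 17834610 to 46148127 reads per library.

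Coverage was multiplied by the percent of C to recover methylated reads, and strands were summed. Set levels are unweighted means over CpGs, compared between sets with exact two-sided permutation tests over libraries. Single CpGs, and 1 kb tiles with at least 3 CpGs, were tested over the whole table with a quasi-binomial model. Its Pearson dispersion was moderated across units by limma's method, computed in Python, and not allowed below 1. As an alternative, limma 3.58.1 in R 4.3.3 was fitted to the log2 ratio of methylated to unmethylated reads. The F test was adjusted by Benjamini-Hochberg, and the method was tested on simulated data. For the replicate block, the prior came from the unblocked fit. Python 3.11.15, numpy 2.4.6, scipy 1.17.1 and pandas 2.3.3 were used. Named were the 5 CpGs and 10 tiles with the largest fall and rise among calls of at least 25 points without overlap, or fewer where fewer met this. The CpGs, lists and tests were chosen with earlier results of these data known. Gene names are not given, since the gene table at hand belongs to another assembly.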

Additional observations from a re-analysis of the deposited data

Results flagged for a closer look

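In 34 named groups of 4 vehicle wells, 1 well lay far from the others in 7. The limit used would flag about 1 in 20 groups of normally distributed values. Wells tied at 100% are not so distributed, so the 7 are not read as an excess. In each of the 7 the other wells were at or near 100%, so a small departure was enough. Vehicle replicate 1 read 98.9% at 17483579 of KB708160.1. Vehicle replicate 2 read 98.5% at 18191903 of KB708130.1, 92.4% at 728647 of KB708347.1, 97.2% in the tile at 4342001 of KB708278.1 and 90.3% in that at 6232001 of KB708169.1. At all of these but the last the other 3 wells were at 100%, and there they were at 99.5% to 100%. Vehicle replicate 3 read 95.8% in the tile at 4278001 of KB708174.1, and vehicle replicate 4 read 88.5% in that at 7182001 of KB708201.1, with the others at 100%.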

How the results depend on the processing

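The mean losses changed little with the processing. Leaving out each library in turn gave -8.73 to -8.36 points for 5aCdR and -8.55 to -8.31 for MT2, and -19.1 to -17.8 points for the 5aCdR share above 80%. The share below 20% after 5aCdR changed sign, from -0.854 to 0.317 points. Contrasts of the 5aCdR loss ran from 0.964 to 3.89 against density 20 or more and from -1.74 to -1.42 against sparse CpGs of 20 to 80%. With pooled reads the contrast was -1.89 against density 10 to 19, 2.90 against density 20 or more (exact permutation, p = 0.0857), and 0.831 between densities 1 to 4 and 5 to 9 (exact permutation, p = 0.0286). The last was -0.250 with a 90% limit and -0.0048 as a log2 ratio, and that against sparse CpGs of 20 to 80% was 0.0515 as a log2 ratio. Asking for coverage in fewer libraries, added after seeing the data, gave -8.52 points for 5aCdR over 19291 CpGs.

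Replicate numbers did not pair the wells, whose deviations had correlations of -0.0198 to 0.0182. With a replicate block the 5aCdR values were -8.62 points for the mean, -19.1 for the share above 80%, 3.18 and -1.66 for the contrasts with density 20 or more and with sparse CpGs of 20 to 80%, 13 CpGs and 11 tiles. For MT2 the block left 17 CpGs and 69 tiles. No paired fit was possible for 5aCdR against primary cells, which share 1 replicate number.

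Counts of calls over all CpGs and tiles were not kept for these settings, so the counts below are not read as particular to the set. CpGs of the set called after 5aCdR numbered 147 with at least 20 reads, 52 at density 1 to 4, 12 under the coverage limit, 0 in limma, and 8 to 87 with a library left out. Tiles numbered 14 with a 90% limit, 8 at density 1 to 4, 13 under the coverage limit, 3 in limma, and 3 to 29 with a library left out. For MT2, 414 CpGs were called with a 90% limit and 22 to 919 with a library left out. Tiles numbered 83 with at least 20 reads, 84 with a 90% limit, 46 at density 1 to 4, 29 in limma, and 35 to 189 with a library left out. The tiles named for rises on KB708174.1 and KB708128.1 gave -1.04 and -5.06 points when the primary libraries that had chosen the CpGs stood for the primary cells. The choice had required a high level in those libraries, so nothing is read from these values. The cause of the changes in the counts was not tested. CpGs read less deeply in any library lie outside the rule.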
